A study of Mus musculus with 18 samples.

Results

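The 10 genes described here encode the machinery by which a cell shows peptides from its own interior on major histocompatibility complex (MHC) class I molecules. They were chosen by symbol from a table of 25926 genes, and all 10 were found in it. Their products are 5 heavy chains (H2-K1, H2-D1, H2-Q4, H2-T22 and H2-T23), the light chain B2m, both chains of the peptide transporter (Tap1 and Tap2), the chaperone tapasin (Tapbp) and the transactivator Nlrc5. The values were FPKM, read numbers scaled to transcript length and library size, from RNA-seq of mouse bone marrow-derived macrophages (BMDMs).

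All BMDMs came from C57BL/6 mice, grew for 7 days in 50 ng/mL M-CSF, a macrophage growth factor, and shared a Transwell plate (0.4 μm pores) with renal tubular epithelial cells (TECs) of wild-type mice, so that both cell types shared medium but not contact. In the NC group (n = 6) the BMDMs received PBS and the TECs were not treated with COM. In the COM group (n = 6) the BMDMs received PBS and the TECs received COM, calcium oxalate monohydrate, at 100 μg/mL for 24 h. In the COM+Met group (n = 6) the TECs received the same COM and the BMDMs received the agent labelled Met at 5.0 mM for 24 h. There was no group with Met alone, so that COM+Met against NC is the joint difference of both treatments. The labels do not say whether samples within a group were separate mice or cultures, and a p-value here speaks of variation among samples that may be partly technical.

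An MHC class I molecule is a heavy chain paired with the invariant light chain beta-2 microglobulin and loaded with a short peptide. The peptides are cut by the proteasome in the cytosol, pumped into the endoplasmic reticulum by the Tap1-Tap2 transporter, and fitted to the heavy chain in a loading complex that tapasin holds together. CD8 T cells read the classical molecules, and natural killer cells sense their loss. Interferons are known to raise transcription of the whole set in macrophages, through IRF and STAT factors and through Nlrc5, which acts on a conserved promoter module.

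Of the genes, 8 lie on mouse chromosome 17, in or beside the MHC region, in GRCm38 coordinates. In order along it they are Tapbp (33915899 to 33929292), H2-K1 (33996017 to 34000347), Tap1 (34187553 to 34197225), Tap2 (34203527 to 34216321), H2-D1 (35262730 to 35267499), H2-Q4 (35379617 to 35385290), H2-T23 (36029773 to 36032855) and H2-T22 (36037128 to 36042747). B2m (122147686 to 122153083) is on chromosome 2 and Nlrc5 (94434356 to 94527272) on chromosome 8. All 10 are annotated as protein-coding.

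Promoter windows were read because genes of this set are known to share upstream elements and moved together here. RefSeq windows of 250 bases ending at the annotated start (build GRCm38.p6) were matched for 8 of the 10 genes, all except Tap2 and Nlrc5. Where a gene had several starts, the most downstream was used. The windows of H2-D1 and Tapbp lie wholly within the GENCODE span of the gene, and that of H2-T23 lies there in part. The 5 printed below are those of a classical heavy chain, of the heavy chains with the largest changes, of the light chain and of the transporter. Capitals mark matches, on either strand, to the CCAAT box (CCAAT), the core of the X2 element (TGACG), an IRF element (AANNGAAA) and the NF-kappa B site. Each sequence is given 5′ to 3′ on the strand of its gene, and the last bases of the H2-K1, H2-T22, B2m and Tap1 windows overlap a GENCODE first exon.
H2-K1, chr17:34000334-34000583, minus strand: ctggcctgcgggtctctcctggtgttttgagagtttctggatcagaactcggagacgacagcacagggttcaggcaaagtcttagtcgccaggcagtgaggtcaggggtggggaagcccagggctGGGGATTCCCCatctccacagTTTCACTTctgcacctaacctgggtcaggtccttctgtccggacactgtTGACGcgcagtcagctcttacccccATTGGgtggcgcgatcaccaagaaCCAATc
H2-Q4, chr17:35379367-35379616, plus strand: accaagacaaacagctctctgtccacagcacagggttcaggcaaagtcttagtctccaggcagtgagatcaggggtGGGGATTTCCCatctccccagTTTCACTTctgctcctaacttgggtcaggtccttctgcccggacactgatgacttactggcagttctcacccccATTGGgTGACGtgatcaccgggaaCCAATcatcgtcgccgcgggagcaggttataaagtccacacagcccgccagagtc
H2-T22, chr17:36042743-36042992, minus strand: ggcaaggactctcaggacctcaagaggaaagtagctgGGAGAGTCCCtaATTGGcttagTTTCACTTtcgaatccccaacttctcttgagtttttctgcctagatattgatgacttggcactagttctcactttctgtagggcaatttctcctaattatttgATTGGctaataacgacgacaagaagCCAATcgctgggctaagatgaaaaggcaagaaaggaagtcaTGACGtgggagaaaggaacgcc
B2m, chr2:122147437-122147686, plus strand: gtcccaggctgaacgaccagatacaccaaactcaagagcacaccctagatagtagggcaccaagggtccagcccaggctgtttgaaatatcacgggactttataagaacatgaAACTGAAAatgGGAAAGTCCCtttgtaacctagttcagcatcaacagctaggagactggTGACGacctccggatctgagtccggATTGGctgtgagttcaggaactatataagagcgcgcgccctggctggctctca
Tap1, chr17:34187306-34187555, plus strand: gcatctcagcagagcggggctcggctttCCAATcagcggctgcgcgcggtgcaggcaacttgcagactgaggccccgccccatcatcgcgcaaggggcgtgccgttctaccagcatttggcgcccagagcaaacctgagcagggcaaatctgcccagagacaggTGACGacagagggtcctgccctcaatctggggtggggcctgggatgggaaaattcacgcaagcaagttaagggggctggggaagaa

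All 8 windows held a CCAAT box, against 34.0% of the 27025 promoter windows in the same table. The X2 core was found in 6 of 8 (17.5% of all windows), in H2-K1, H2-D1, H2-Q4, H2-T22, B2m and Tap1. An IRF element was found in 6 of 8 (21.7% of all windows), in all 5 heavy chain genes and B2m. The NF-kappa B site was found in 5 of 8 (7.11% of all windows). A GAS element (TTCNNNGAA), the palindrome that STAT dimers bind, was found in 0 of 8 (7.12% of all windows). In H2-K1, H2-D1, H2-Q4 and H2-T22 the NF-kappa B site lay farthest from the start, followed by the IRF element and then the X2 core. In B2m the IRF element lay farthest out, and the Tap1 window held neither of those upstream elements. The X2 core was not placed alike relative to the CCAAT boxes. It lay farther out than every CCAAT box in H2-K1 (first base at -55 from the start), H2-D1 (-101) and B2m (-78). In H2-Q4 (-73) it lay between the CCAAT boxes, and in H2-T22 (-22) and Tap1 (-86) nearer the start than any. The 6 X2 matches therefore need not be the same element. The heavy chain windows are related by descent and are not independent: the longest identical run was 47 bases between H2-K1 and H2-D1 and 30 bases between H2-K1 and H2-Q4. A match is a string of letters and was not tested for binding.

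**Figure D1:**
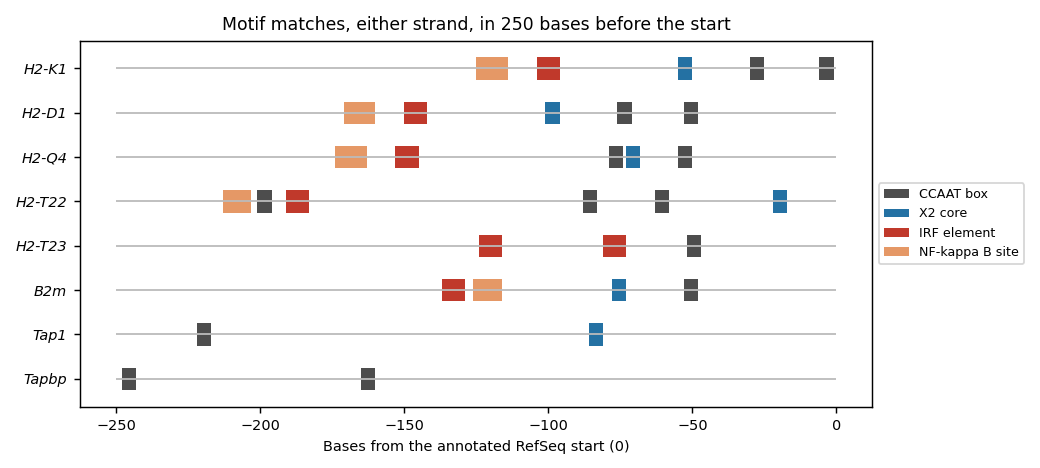
Positions of motif matches in the 250 bases before the RefSeq start of 8 class I genes, in bases from the start (x axis), one row a gene, with a bar for each match on either strand. The NF-kappa B and IRF matches lie near each other in 5 genes, and Tap1 and Tapbp hold neither.

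Before the comparisons, the libraries were compared with each other over 10751 genes whose mean reached 1 FPKM. Pearson's r of log2 values, taken across genes, was 0.992 or more among COM-1 to COM-3 and 0.995 between COM-4 and COM-5, whereas no sample of the first set reached more than 0.951 with COM-4 or COM-5. COM-6 reached at most 0.935 with any sample of its group. NC-5 and NC-6 likewise stood apart from NC-1 to NC-4, with no correlation above 0.962 between them, and the lowest correlation among the COM+Met samples was 0.989. Values below are from all samples, and calls of the 10 genes and of the gene lists were also counted with COM-1 to COM-3 as the only COM samples and with NC-1 to NC-4 as the only NC samples. All 8 macrophage markers averaged 1 FPKM or more in every group, with Lyz2 the highest, and 10 to 13 of 13 tubular epithelial markers were below 0.1 FPKM in each group. The summed FPKM of the epithelial markers nonetheless ran from 10.9 to 18.2 in NC, 0.468 to 1.37 in COM and 0.0575 to 0.332 in COM+Met, most of it from the adhesion molecule Cdh1 (means of 12.9, 0.555 and 0.0693 FPKM). The summed FPKM of 11 neutrophil markers ran from 535 to 1017 in NC, 170 to 552 in COM and 74.0 to 137 in COM+Met. Mmp8 was the highest of them in each group (means of 336, 175 and 68.7 FPKM), and Ly6g was below 0.1 FPKM in each. Camp did not follow the sum, with means of 5.56 FPKM in NC-1 to NC-4 and 1.87 in NC-5 and NC-6. Its COM means were 9.46 FPKM in COM-1 to COM-3 and 8.32 in COM-4 and COM-5, with 2.57 in COM-6. The sum of 7 dendritic cell markers ran from 49.3 to 185, 112 to 391 and 112 to 147 in the same groups. The part of these cells in the results below was not tested, and in bulk samples a change in the share of a cell type cannot be told apart from a change in RNA per cell.

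To assess whether exposure of TECs to COM went along with a change in class I genes of the cocultured BMDMs, COM was compared with NC. All 10 genes had a higher mean in COM, by 0.99 to 3.26 on the log2 scale. For 9 of them the call was passed (adjusted p under 0.05 and a change of at least 2-fold, limma with Benjamini-Hochberg adjustment over 10900 genes), and H2-D1 fell just short of 2-fold. The share of all genes tested that was called was 5.99% upwards and 11.7% downwards. With Met on the BMDMs as well, all 10 genes were called higher than in NC, by 1.89 to 4.01, against 5.66% of 10786 genes called higher and 13.6% called lower. Between COM+Met and COM, 0 of 10 were called, and the COM samples had a wide spread that the next paragraphs describe.

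Among the classical heavy chains, H2-K1, which presents peptides to CD8 T cells, measured 308 to 443 FPKM in NC (median 393). In COM it measured 1332, 1309, 1379, 3764, 3591 and 1433 FPKM for COM replicates 1 to 6. In COM+Met it measured 3211 to 3617 FPKM (median 3248). The NC samples lay below all others, COM-4 and COM-5 reached the level of the COM+Met samples, and the other 4 COM samples lay between. The log2 fold change of COM over NC was 2.33 ± 0.29 (SE, adjusted p = 3.56e-05), and that of COM+Met over NC was 3.15 ± 0.09 (adjusted p = 1.76e-11).

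H2-D1, the other classical heavy chain expressed in this strain, had the smallest change of the set. It measured 695 to 917 FPKM in NC (median 739), with its highest values in NC-5 and NC-6. In COM it measured 1265, 1289, 1315, 3058, 2845 and 745 FPKM for COM replicates 1 to 6. COM-6 fell within the NC range, and the other 5 COM samples lay above it. The change of COM over NC was 0.99 ± 0.30 (adjusted p = 0.0151), which became 1.20 (adjusted p = 0.00177) without COM-6 and 0.72 (adjusted p = 0.000449) with COM-1 to COM-3 as the only COM samples. Under quantile normalisation it was 0.73 with an adjusted p of 0.0548. In COM+Met, H2-D1 measured 2777 to 3084 FPKM (median 2841), with no overlap with NC (1.89 ± 0.08, adjusted p = 4.35e-10).

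Of the 10 genes, H2-Q4 and H2-T22, both non-classical heavy chains, had the largest changes over NC. H2-Q4, of the Qa group, measured 17.5 to 29.0 FPKM in NC, and 111, 101, 98.8, 533, 507 and 184 FPKM for COM replicates 1 to 6. The COM+Met samples had 370 to 468 FPKM, above all NC samples and COM-1 to COM-3 and below COM-4 and COM-5. Its log2 fold changes over NC were 2.99 ± 0.43 in COM (adjusted p = 0.000108) and 4.01 ± 0.13 in COM+Met (adjusted p = 3.28e-11). H2-T22, a molecule that some gamma-delta T cells bind, measured 23.4 to 27.9 FPKM in NC, and 155, 152, 161, 528, 481 and 277 FPKM for COM replicates 1 to 6. In COM+Met it measured 325 to 394 FPKM, and its log2 fold changes over NC were 3.26 ± 0.31 in COM (adjusted p = 3.63e-06) and 3.78 ± 0.06 in COM+Met (adjusted p = 7.99e-14).

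H2-T23 encodes Qa-1, the ligand of an inhibitory receptor of natural killer cells. It measured 59.4 to 92.8 FPKM in NC, and 239.9, 252, 266, 670.5, 583 and 255 FPKM for COM replicates 1 to 6. Values in COM+Met were 576 to 653 FPKM, so that NC was again the lowest group with no overlap. The log2 fold changes over NC were 2.11 ± 0.28 in COM (adjusted p = 4.84e-05) and 2.94 ± 0.11 in COM+Met (adjusted p = 1.78e-10).

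The heavy chain genes resemble each other in sequence, which limits how reads can be assigned. Of the 50-base windows of the longest H2-T22 transcript, 44.7% occurred in transcripts of other genes, and 37.9% in H2-T10 alone. The share was 28.8% for H2-T23, 24.3% for H2-Q4, 14.3% for H2-D1 and 8.79% for H2-K1. It was 0 for B2m and Nlrc5 and 0.861%, 0.737% and 2.0% for Tap1, Tap2 and Tapbp. How the authors' counting treated shared reads is not given in the sources used here, and the levels of single heavy chains are uncertain to that extent.

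B2m, the light chain that every class I heavy chain needs to reach the surface, was the most abundant of the 10 transcripts. It measured 796 to 1215 FPKM in NC (median 1096). In COM it measured 3700.5, 3459.9, 3688, 8186, 8024 and 9861 FPKM for COM replicates 1 to 6, and in COM+Met 7218 to 7681 FPKM (median 7382). It was the only member for which COM-6 lay above COM-4 and COM-5. The log2 fold changes over NC were 2.46 ± 0.29 in COM (adjusted p = 2.01e-05) and 2.86 ± 0.10 in COM+Met (adjusted p = 1.04e-10).

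The transporter chains differed in size of change. Tap1 measured 12.7 to 25.7 FPKM in NC, and 59.9, 62.8, 61.8, 165, 152 and 62.4 FPKM for COM replicates 1 to 6. The COM+Met range was 131 to 144 FPKM, and its log2 fold changes over NC were 2.11 ± 0.30 in COM (adjusted p = 8.94e-05) and 2.82 ± 0.15 in COM+Met (adjusted p = 3.14e-09). Tap2 measured 15.8 to 23.4 FPKM in NC, and 37.3, 37.3, 38.2, 95.6, 90.3 and 29.4 FPKM for COM replicates 1 to 6. In COM+Met it measured 76.3 to 85.5 FPKM. The Tap2 change in COM was 1.23 ± 0.28 (adjusted p = 0.00259), which was 0.86 with COM-1 to COM-3 as the only COM samples and then missed the 2-fold limit, and that in COM+Met was 1.93 ± 0.08 (adjusted p = 4.7e-10).

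Tapbp encodes tapasin, which bridges the transporter and the empty heavy chain. It measured 80.8 to 144 FPKM in NC, and 542, 533, 545, 705, 672 and 267 FPKM for COM replicates 1 to 6. COM+Met samples measured 665 to 849 FPKM. It had the smallest gap between COM-4 or COM-5 and COM-1 to COM-3 of the 10 genes, and COM-6 was the lowest COM sample while above all NC samples. The log2 fold changes over NC were 2.14 ± 0.24 in COM (adjusted p = 1.51e-05) and 2.61 ± 0.15 in COM+Met (adjusted p = 6.2e-09).

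Nlrc5, the transactivator of class I genes, was the least abundant member. It measured 1.07 to 3.34 FPKM in NC, and 8.40, 9.71, 9.50, 22.7, 22.2 and 13.6 FPKM for COM replicates 1 to 6. Levels in COM+Met were 19.0 to 21.7 FPKM. The log2 fold changes over NC were 2.16 ± 0.27 in COM (adjusted p = 3.93e-05) and 2.71 ± 0.17 in COM+Met (adjusted p = 1.08e-08), on the log2(FPKM + 1) scale, which understates the change of a gene this low.

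**Figure D2:**
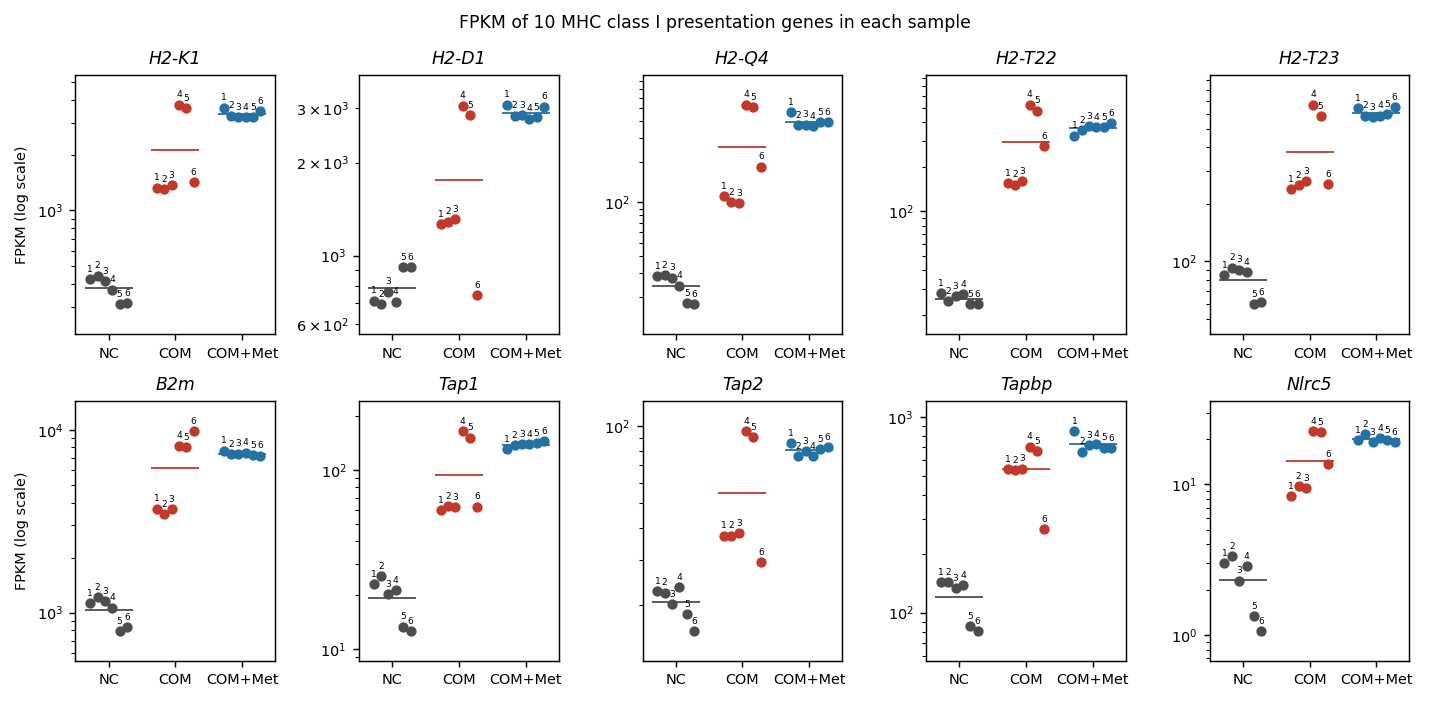
FPKM of the 10 genes on log axes, one panel a gene, with a point for each sample (numbered by replicate) and a line at the mean of each group of 6. In every panel COM-4 and COM-5 sit above COM-1 to COM-3, and the COM+Met samples lie close together and above COM-1 to COM-3.

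The order of levels within the set changed between groups. In NC it ran B2m (mean 1032 FPKM), H2-D1 (786), H2-K1 (379), Tapbp (121), H2-T23 (79.5), H2-T22 (25.7), H2-Q4 (24.1), Tap2 (20.4), Tap1 (19.4) and Nlrc5 (2.32). The ranges of B2m and H2-D1, of Tapbp and H2-T23 and of neighbours among H2-T22, H2-Q4, Tap2 and Tap1 overlapped in NC. In COM+Met it ran B2m (7407 FPKM), H2-K1 (3331), H2-D1 (2898), Tapbp (724), H2-T23 (607), H2-Q4 (396), H2-T22 (365), Tap1 (139), Tap2 (80.2) and Nlrc5 (19.9), and H2-Q4 and H2-T22 were the only neighbours with overlapping ranges. By mean, H2-K1 thus stood above H2-D1, and Tap1 above Tap2, in COM+Met and below them in NC. The spread over samples was also different, with a coefficient of variation of 2.21% to 9.14% in COM+Met, 7.76% to 40.3% in NC and 28.4% to 81.0% in COM.

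In COM against NC, 9 of the 10 genes had no overlap between the 6 COM and the 6 NC values, all of them higher in COM, against 8.6% of all genes tested. The exact permutation p was 0.00216 for these 9, the smallest that 6 against 6 samples allow, and 0.00866 for H2-D1. The median log2 fold change of the 10 genes was 2.15 and that of all genes tested was -0.27, a difference of 2.42. Scaling by median-of-ratios size factors moved the median of all genes to -0.0045 and the genes called from 653 higher and 1273 lower to 859 higher and 834 lower, and all 10 class I genes were then called higher. With NC-1 to NC-4 as the only NC samples all 10 were called, by 1.11 (H2-D1 and Tap2) to 3.20 (H2-T22). With COM-1 to COM-3 as the only COM samples 8 were called, without H2-D1 (0.72) and Tap2 (0.86), and the other changes ran from 1.66 (Tap1) to 2.56 (H2-T22).

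In COM+Met against NC, all 10 genes had no overlap, against 14.1% of all genes tested, and each had an exact permutation p of 0.00216. The median log2 fold change was 2.84 against -0.26 for all genes. All 10 were called in each of the alternatives tried, the one with NC-1 to NC-4 as the only NC samples included, where the changes ran from 1.82 for Tap2 to 3.81 for H2-Q4. This comparison and that of COM with NC share the NC samples and are not independent of each other.

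To assess whether Met on the BMDMs went along with a further change, COM+Met was compared with COM. All 10 genes had a higher mean in COM+Met, by 0.41 (B2m) to 1.01 (H2-Q4) on the log2 scale, although B2m turned to -0.11 under quantile normalisation. In limma 0 of 10 were called, and 8 of 10 had an unadjusted p under 0.05. The exact permutation p, not adjusted, was 0.0152 for Tapbp and 0.0476 for H2-D1 and H2-T23. For the other genes it ran from 0.0584 (H2-K1) to 0.182 (B2m). The median of the 10 was 0.70 and that of all 10364 genes tested was 0.0033. Adjusted p-values in limma ran from 0.0507 (H2-T23) to 0.347 (B2m), and none of the 10 genes had separate groups. Of all genes tested, 0.608% were called higher, 1.61% were called lower and 5.83% did not overlap with COM+Met higher. At 95% confidence the log2 change lay between 0.20 and 1.42 for H2-K1, between 0.27 and 1.38 for H2-T23 and between -0.17 and 0.98 for B2m.

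The outcome depended on which COM libraries entered. In all 10 genes the 6 COM+Met samples lay above COM-1, COM-2 and COM-3, and in 6 of them (H2-Q4, H2-T22, B2m, Tap1, Tap2 and Nlrc5) all COM+Met samples lay below both COM-4 and COM-5. With COM-1 to COM-3 as the only COM samples 9 of the 10 were called higher in COM+Met, with log2 fold changes from 1.03 (B2m) to 1.92 (H2-Q4), and Tapbp changed by 0.42 (adjusted p = 0.000233) and missed the 2-fold limit. COM-1 to COM-3 lay below COM-4 and COM-5 in all 10 genes, so that keeping only them raises the change by the choice of samples. The mean of COM+Met lay below that of COM-4 and COM-5 in 9 of the 10, and no fit against COM-4 and COM-5 alone was run. The calls of this setting therefore do not establish a change with Met. With sample weights 7 of the 10 were called, without COM-4 4 of the 10 and without COM-5 2 of the 10. Of all 10751 genes, 15.9% had COM-4 and COM-5 both above COM-1 to COM-3 and 58.6% had both below. What set COM-4 and COM-5 apart was not tested.

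**Figure D3:**
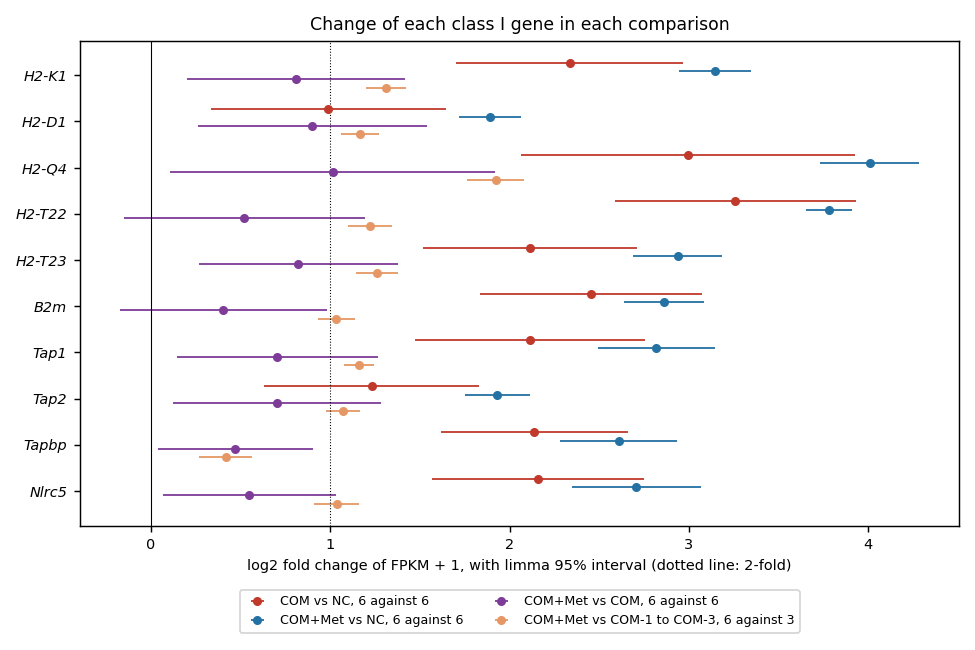
Log2 fold change of FPKM + 1 for each of the 10 genes (points) with 95% intervals from limma (lines), for COM and COM+Met against NC, COM+Met against COM, and COM+Met against COM-1 to COM-3. The changes over NC lie between 0.99 and 4.01, and the intervals against the 6 COM samples are wide where those against COM-1 to COM-3 are narrow. COM-1 to COM-3 lay below COM-4 and COM-5 in all 10 genes.

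COM-6 was near COM-1 to COM-3 in some of the genes and apart from them in others. Its level relative to their mean was 1.07 for H2-K1, 1.01 for H2-T23 and 1.02 for Tap1, and ran from 0.495 (Tapbp) to 2.73 (B2m) over the 10 genes. Against the mean of COM-1 to COM-5, its log2 value differed by -1.27 for H2-D1, -1.15 for Tapbp, -0.86 for Tap2 and 0.98 for B2m, beside a median of -0.28 over all genes. In 9 of the 10 genes, all except B2m, it lay below COM-4 and COM-5. In NC, NC-5 and NC-6 lay below NC-1 to NC-4 in 9 of the 10 genes and above them for H2-D1, an order that 27.1% of all genes showed downwards and 28.9% upwards.

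Ratios of FPKM between genes of the same sample were taken next, because they do not depend on how a sample is scaled. The ratio of H2-K1 to H2-D1 was 0.496 ± 0.127 (SD, n = 6) in NC, 1.26 ± 0.34 in COM and 1.15 ± 0.02 in COM+Met. It ran from 0.337 to 0.638 in NC and from 1.02 to 1.92 in COM, so that every COM sample lay above every NC sample, with COM-6 the highest (exact permutation test, two-sided, p = 0.00216, adjusted p = 0.00518 over 12 tests). The ratio of Tap1 to Tap2 was 0.937 ± 0.157 in NC, 1.74 ± 0.19 in COM and 1.73 ± 0.10 in COM+Met, again with no overlap between NC and either other group (exact permutation p = 0.00216 for each, adjusted p = 0.00518). For both ratios the difference between COM+Met and COM was not detectable (exact permutation p = 0.76 and 0.972).

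The ratio of H2-K1 to B2m, heavy to light chain, was close in NC (0.369 ± 0.014) and COM (0.361 ± 0.113), and the difference was not detectable (exact permutation p = 0.924). The COM values were 0.360, 0.378, 0.374, 0.460, 0.448 and 0.145 in COM-1 to COM-6. In COM+Met the ratio was 0.450 ± 0.020, above every NC sample (exact permutation p = 0.00216, adjusted p = 0.00518), and against COM the exact permutation p was 0.039 (adjusted p = 0.078). The ratio of Tap1 to B2m was 0.0185 ± 0.0024 in NC, 0.0161 ± 0.0050 in COM and 0.0187 ± 0.0010 in COM+Met, and none of its 3 differences was detectable (exact permutation p = 0.368, 0.195 and 0.777). COM-6 had the lowest value of both ratios to B2m.

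**Figure D4:**
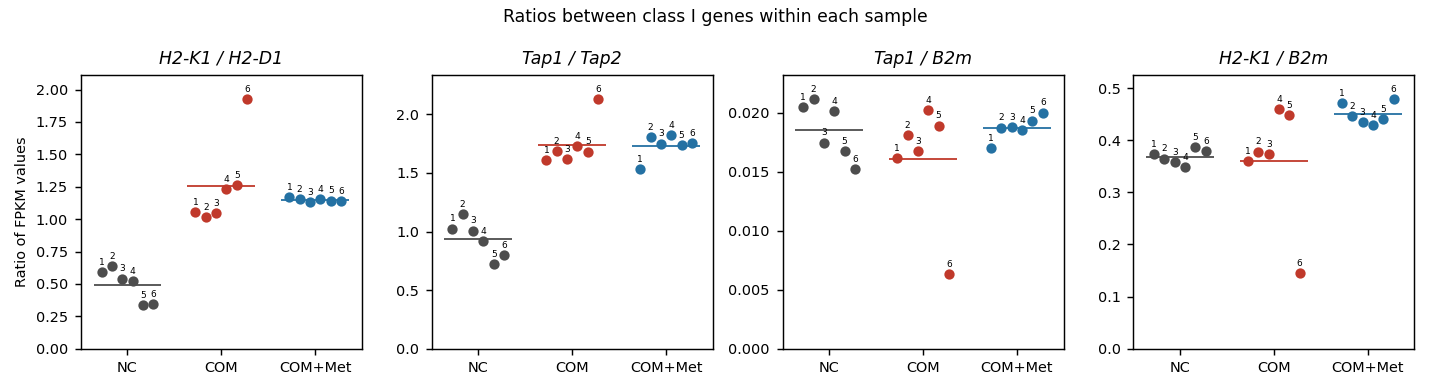
Ratio of FPKM values of 2 genes within each sample (y axis), one panel a ratio, with a point for each sample (numbered by replicate) and a line at the mean of each group of 6. H2-K1 to H2-D1 and Tap1 to Tap2 separate NC from both other groups, and COM-6 stands apart in all 4 panels.

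The other genes of antigen presentation were then counted by list, against the same 5.99% called higher and 11.7% called lower in COM, and 5.66% and 13.6% in COM+Met, over NC. Among other class I heavy chains and related molecules, 8 of 12 tested were called higher in COM and 9 of 12 in COM+Met. H2-Q6 had a mean of 2.78 FPKM in NC, 209 in COM and 297 in COM+Met (log2 fold changes over NC 4.97 and 6.56). H2-Q7 had means of 2.62, 187 and 339 FPKM (4.95 and 6.75), H2-Q5 means of 1.70, 54.7 and 85.3 FPKM (3.83 and 5.13), and H2-M2 means of 60.0, 705 and 679 FPKM (4.48 and 4.51). The COM means of the Q genes join unlike samples, with a mean of 25.0 FPKM in COM-1 to COM-3 and 479 in COM-4 and COM-5 for H2-Q6, 30.9 and 448 for H2-Q7, and 13.1 and 125 for H2-Q5. H2-M2 was split the other way (940 and 425 FPKM), and its NC mean joins 88.5 FPKM in NC-1 to NC-4 and 2.95 in NC-5 and NC-6. With COM-1 to COM-3 as the only COM samples the changes over NC were 3.05 for H2-Q6, 3.34 for H2-Q7 and 2.51 for H2-Q5, and with NC-1 to NC-4 as the only NC samples those of H2-M2 were 2.98 in COM and 3.02 in COM+Met. The same 8 genes of the list were called higher in COM in both of these settings. The sole gene of the list called lower was Fcgrt, which encodes the heavy chain of the neonatal Fc receptor and uses B2m as well, with means of 24.7, 5.53 and 3.71 FPKM (-2.11 and -2.40). Of the H2-Q6 and H2-Q7 windows 32.0% and 34.9% occurred in other genes' transcripts, and the values of these neighbours cannot be fully separated.

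All 5 genes of the immunoproteasome list, the inducible catalytic subunits and the PA28 activator that favour class I peptides, were called higher in COM and in COM+Met. Psme1 had a mean of 64.7 FPKM in NC, 249.8 in COM and 256 in COM+Met (log2 fold changes over NC 1.91 and 1.97). Psmb8 rose from a mean of 43.0 to 169 and 224 FPKM (1.87 and 2.37), Psme2 from 65.3 to 241 and 287 FPKM (1.81 and 2.13), and Psmb10 from 41.9 to 126 and 170.4 FPKM (1.47 and 2.03). These COM means join unlike libraries. In COM-1 to COM-3, in COM-4 and COM-5 and in COM-6, Psmb8 had 132, 260 and 99.6 FPKM and Psmb10 105, 196 and 52.0 FPKM. Psmb9 had 24.6 FPKM in COM-6, within its NC range of 14.6 to 26.0 FPKM. All 5 genes of the list were also called in COM with COM-1 to COM-3 or NC-1 to NC-4 as the only samples of their group. Of their 4 constitutive counterparts, 0 were called in either direction in either comparison (limma, with 0 and 4 at an unadjusted p under 0.05), with a median log2 fold change of 0.11 in COM and 0.26 in COM+Met. Of the 7 cytosolic peptidases tested, which destroy or trim peptides, 0 were called in either (5 and 5 at an unadjusted p under 0.05), with medians of -0.47 and -0.36. Every peptidase with such a p was lower than in NC and also had an adjusted p under 0.05, as had all 4 constitutive counterparts in COM+Met. Of these, Psme3 was lower and the others higher than in NC, all within 2-fold.

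Of the 14 genes of the loading complex and of quality control in the endoplasmic reticulum, 2 were called higher and 0 lower in both comparisons. They were Erap1, which trims peptides to class I length (means of 15.1, 35.8 and 46.1 FPKM in NC, COM and COM+Met), and Tapbpl, a tapasin relative that edits peptides (15.3, 33.7 and 48.6 FPKM). The median of the list was 0.0010 in COM and 0.095 in COM+Met. In both, Calr and Hspa5 were higher than in NC without overlap and missed the 2-fold limit. Calr changed by 0.78 and 0.59 (limma adjusted p = 0.00249 and 0.00103), and Hspa5 by 0.81 and 0.78 (5.39e-05 and 2.76e-06). Within 2-fold and at an adjusted p under 0.05, Pdia3 (both) and Hsp90b1 (COM) were also higher. Bcap29 (COM) and Uggt1, Sec61b and Bcap31 (COM+Met) were lower by the same measure. In COM, Tapbpl missed the 2-fold limit with COM-1 to COM-3 as the only COM samples (0.72) and with NC-1 to NC-4 as the only NC samples (0.90), and Erap1 missed it with the former (0.64).

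Of 15 class I regulators, 3 were called higher in COM, and the same 3 in COM+Met. Stat2, a factor of the type I interferon response, had means of 16.1, 86.4 and 91.3 FPKM in NC, COM and COM+Met (log2 fold changes over NC 2.26 and 2.47). Irf9, the DNA-binding partner of Stat2, had means of 12.4, 32.4 and 32.0 FPKM (1.40 and 1.39). Irf1 had means of 33.7, 75.4 and 118 FPKM (1.13 and 1.85), and its change in COM was not called with COM-1 to COM-3 (0.66) or NC-1 to NC-4 (0.78) as the only samples of their group. In COM+Met 1 regulator was called lower, Nfyb, a subunit of the factor that binds the CCAAT box. Its means were 8.10, 4.07 and 3.32 FPKM in NC, COM and COM+Met. The log2 fold change in COM+Met was -1.07, which was not called with NC-1 to NC-4 as the only NC samples. In COM it was -0.84 (limma, adjusted p = 1.61e-05) and missed the 2-fold limit. Ciita was the regulator called lower with NC-1 to NC-4 as the only NC samples, in COM and in COM+Met. Its NC mean joins 13.8 FPKM in NC-1 to NC-4 and 1.96 in NC-5 and NC-6. Atf1, Nfya and Nfyc were lower than in NC in both comparisons, at an adjusted p under 0.05 and within 2-fold. So were Creb1, Rfxap, Irf2 and Nfkb1 in COM+Met. Of interferon ligands and receptors, Ifng and Ifnb1 lay below the limit of 1 FPKM and were not tested. Ifng was listed at a mean of 0.010 FPKM or less in each group. Ifnb1 had means of 0.0407, 0.446 and 0.426 FPKM in NC, COM and COM+Met, with 0.090 FPKM in COM-1 to COM-3, 0.822 in COM-4 and COM-5 and 0.760 in COM-6. Ifnar2, a chain of the type I interferon receptor, was called higher in both (means of 44.5, 120 and 133 FPKM). Ifngr1 (52.5, 29.4 and 23.7 FPKM) was called lower in COM+Met only. Its change in COM (-0.81, limma adjusted p = 0.00135) missed the 2-fold limit.

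Of 11 genes of cross-presentation, the loading of ingested antigen onto class I, 2 were called higher and 1 lower in COM. Cybb, a subunit of the phagocyte oxidase, had means of 486, 1198 and 1221 FPKM in NC, COM and COM+Met and was called in both. Rac2 (93.4, 194 and 184 FPKM) was called higher and Wdfy4 (29.5, 14.2 and 14.7 FPKM) lower in COM. In COM+Met they changed by 0.97 and -0.94 and missed the 2-fold limit. With NC-1 to NC-4 as the only NC samples Cybb alone of the list was called in COM. Of 5 genes in a list of class I receptors and related receptors, 2 were called higher in COM and 0 in COM+Met. They were Klra2, of the Ly49 receptors, and Pilra, which is known to bind sialylated proteins and not class I. Means in NC, COM and COM+Met were 2.93, 15.3 and 5.70 FPKM for Klra2 and 61.3, 139 and 96.6 FPKM for Pilra. In COM, Pilra was not called with NC-1 to NC-4 as the only NC samples. The COM mean of Klra2 joins 7.30 FPKM in COM-1 to COM-3, 19.2 in COM-4 and COM-5 and 31.5 in COM-6. In COM+Met both genes were higher than in NC without overlap and missed the 2-fold limit. Klra2 changed by 0.77 and Pilra by 0.71 (limma adjusted p = 0.000288 and 0.00435). Lilrb4a (0.32) was higher and Lilr4b (-0.17) lower there, also at an adjusted p under 0.05. In none of the 10 lists was a gene called between COM+Met and COM (limma, with 23 of 86 at an unadjusted p under 0.05), where 0.608% of all genes were called higher and 1.61% lower. Rab27a, H2-Oa, H2-DMb2, Pilra, Lnpep and Sec22b (lower) and Lap3 and Irf1 (higher) passed the adjusted p and missed only the 2-fold limit. Their limma adjusted p ran from 0.00113 (Rab27a) to 0.0468 (Sec22b), and 1384 of all 10364 genes tested had one under 0.05. With COM-1 to COM-3 as the only COM samples 6 of the 86 were called higher (H2-Q1, H2-Q5, H2-Q6, H2-Q7, H2-T10 and Irf1) and 6 lower (Rab27a and 5 class II genes).

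Genes of class II, which presents ingested peptides to CD4 T cells, were counted as well. Of 9 genes in the fit, 1 was called lower and 0 higher in COM, and 5 lower and 0 higher in COM+Met, with medians of -0.73 and -1.20. Ctss was higher than in NC without overlap in both (0.45 and 0.63, limma adjusted p = 0.0138 and 2.05e-05) and missed the 2-fold limit. H2-Eb1 had means of 361, 152 and 72.4 FPKM in NC, COM and COM+Met, H2-Aa 518, 230.4 and 114 FPKM, H2-DMb2 13.9, 6.21 and 2.95 FPKM, and the invariant chain Cd74 1538, 764 and 398 FPKM. These means join unlike libraries. H2-Aa averaged 730 FPKM in NC-1 to NC-4 and 92.4 in NC-5 and NC-6, and 356 in COM-1 to COM-3 and 101 in COM-4 and COM-5. In NC-5 and NC-6 the means of H2-Aa, H2-Ab1 (84.6 FPKM), H2-Eb1 (60.3) and Cd74 (272) were below those of COM+Met (114, 149, 72.4 and 398 FPKM). With NC-1 to NC-4 as the only NC samples 6 of 9 were called lower in COM and 6 in COM+Met, with medians of -1.69 and -2.21. With COM-1 to COM-3 as the only COM samples 1 was called lower in COM, and the median turned to 0.092. The ranges of NC and COM+Met overlapped for all of the class II genes called with all samples. H2-DMa, which helps to load class II, was the gene called lower in COM (61.8 and 21.0 FPKM).

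**Figure D5:**
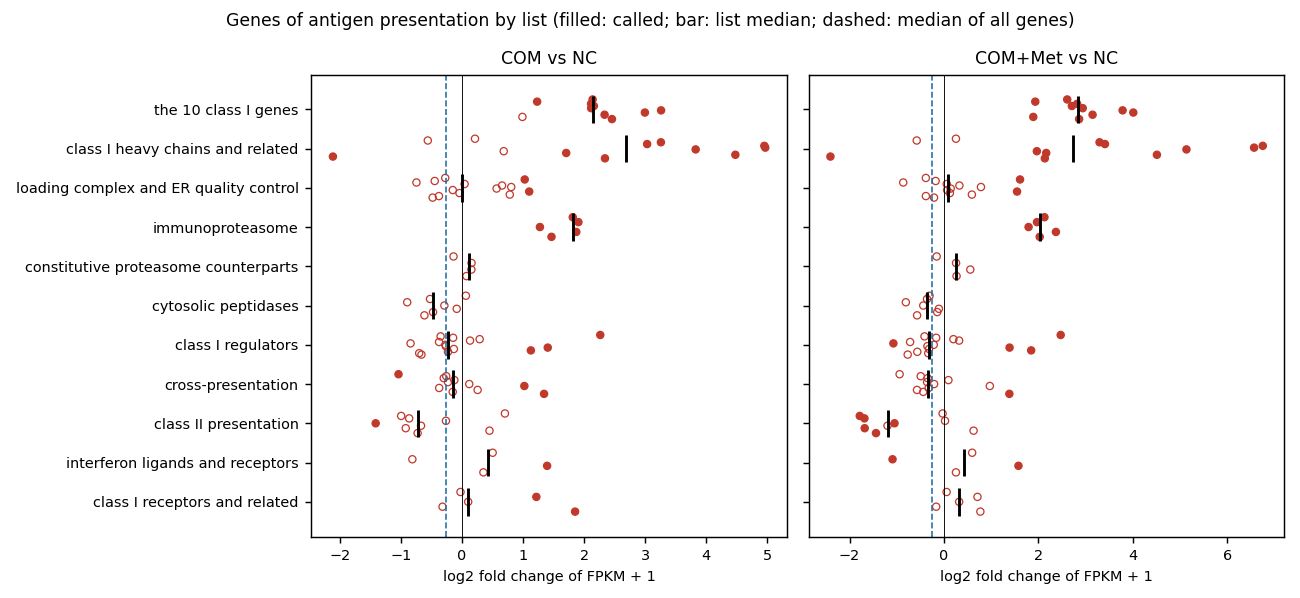
Log2 fold change of FPKM + 1 over NC (x axis) of each tested gene, by list, in COM (left) and COM+Met (right), with filled points for genes called, a bar at the median of the list and a dashed line at the median of all genes (-0.27 and -0.26). The medians of the 10 class I genes, other heavy chains and the immunoproteasome lie between 1.81 and 2.84, and those of class II genes at -0.73 and -1.20, with single genes of these lists on either side.

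The genes whose pattern over the 18 samples was most like that of the set were found by the root mean square difference between a gene's standardised log2 values and the mean of the standardised members, over 10324 genes. The 5 nearest genes that are not members were Npc2 (difference 0.106), Psmb8 (0.108), Adar (0.111), Mov10 (0.118) and Bst2 (0.119). Their mean FPKM in NC, COM and COM+Met was 166, 360.3 and 510.4 for Npc2, a lysosomal cholesterol carrier, and 15.4, 35.2 and 41.3 for Adar, an RNA-editing enzyme. It was 2.58, 21.9 and 28.8 for Mov10, a helicase, and 45.2, 813 and 1258 for Bst2, which tethers budding virus. Among the members themselves H2-K1 (0.0378) lay nearest to the mean pattern and H2-D1 (0.384) farthest. Among all 10324 genes Tapbp ranked 82, B2m 102 and H2-D1 290, so that many genes outside the set were nearer to its pattern than these members. The standardised mean of the set ran from -1.48 to -1.09 in NC and from 0.87 to 0.95 in COM+Met, and was -0.0045, 0.0042, 0.031, 1.05, 0.98 and 0.0497 in COM-1 to COM-6.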

How the data were processed

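RNA-seq was performed on BMDMs of 18 samples, 6 in each of NC, COM and COM+Met. The authors deposited a table of FPKM values for 25926 genes, and the library type (TruSeq) is given by the labels. Per the submitters' processing notes Bowtie 0.12.2 was used, with mm8 and mm9 named as builds; the counting step is not given in the sources used here. FPKM values hold no read totals, so that depth is unknown and no counting error can be given; they sum to 380731 to 449186 per sample.

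Values were tested as log2(FPKM + 1) where the mean over the 12 samples of a comparison reached 1 FPKM. Each pair of groups was fitted with limma 3.58.1 (R 4.3.3) with an intensity trend and Benjamini-Hochberg adjustment over all genes tested, and the script was tested on simulated data. A call needed an adjusted p under 0.05 together with a 2-fold change. Ratios were compared by exact permutation tests over samples, adjusted over 12 tests. Members and gene lists were chosen with earlier results of these data known. Of the class I regulators listed, 1 is not reported here and was left out of that list's counts. Named genes are all members, up to 4 called genes per list with the largest change, and the 5 genes nearest in pattern. Others named (Fcgrt, Nfyb, Ifng, Ifnb1, H2-Q1, H2-T10, H2-Ab1, Rab27a, Cdh1, Ctss, H2-Oa, Lap3, Lnpep, Sec22b, Psme3, Calr, Hspa5, Pdia3, Hsp90b1, Bcap29, Uggt1, Sec61b, Bcap31, Psmb9, Ciita, Atf1, Nfya, Nfyc, Creb1, Rfxap, Irf2, Nfkb1, Lilrb4a, Lilr4b, Mmp8, Ly6g, Camp) were chosen after their values were seen. Gene positions are from GENCODE M21 (GRCm38), matched by Ensembl ID, and promoter windows from RefSeq. Alternatives varied pseudocount, filter, scaling, block, weights and samples; those for the gene lists were chosen after seeing the data.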

Additional observations from a re-analysis of the deposited data

Results flagged for a closer look

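In 3 of 30 groups of 6 samples checked (10 genes in 3 groups), the highest or lowest sample stood apart from the other 5 by Dixon's test at the 95% level, which flags about 1 in 20 groups by chance. COM-6 was the lowest COM sample for Tapbp, at 267.3 FPKM against 533 to 705 in COM-1 to COM-5. COM+Met-1 was the highest sample for Tapbp, at 849 FPKM against 665 to 725 in the other COM+Met samples. COM+Met-1 was also the highest for H2-Q4, at 468 FPKM against 370 to 395 in the others. COM-4 and COM-5 were not singled out in this way because they lie together.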

How the results depend on the processing

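FPKM values give no depth, libraries of 1 group fall into separate sets, and reads of similar heavy chains cannot be fully assigned. All changes of the 10 class I genes over NC kept their direction in every alternative. The pseudocount of 5 lowered the genes called from 1926 to 980 (COM over NC), from 230 to 90 (COM+Met over COM) and from 2078 to 1117 (COM+Met over NC), and 0.1 raised the second to 370. In COM+Met over COM, sample weights gave 719 genes and 7 of the 10 class I genes, and COM-1 to COM-3 as the only COM samples gave 771 genes and 9 class I genes. Leaving out 1 sample gave 1727 to 2073, 182 to 300 and 2015 to 2136 genes in the 3 comparisons, and 9 to 10, 0 to 4 and 10 class I genes, with 4 without COM-4 and 2 without COM-5. The same replicate number did not mark related samples (correlations of same-numbered deviations from -0.222 to 0.0569), and the replicate block gave 1920, 202 and 2080 genes and 9, 0 and 10 class I genes.

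For the gene lists 2 settings were added after seeing the data. With NC-1 to NC-4 as the only NC samples, the genes called in COM over NC went from 2 to 1 in the loading complex list, from 3 to 1 in cross-presentation, from 1 to 6 in class II and from 2 to 1 in the receptors. The regulators kept their count in that setting, with Ciita (lower) in place of Irf1 (higher). With COM-1 to COM-3 as the only COM samples, the loading complex list had 1 in COM over NC, which was Calr (higher). In that setting COM+Met over COM went from 0 to 5 among other heavy chains, 1 among regulators, 1 in cross-presentation and 5 in class II.

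B2m in COM+Met over COM turned to -0.11 under quantile normalisation. With a pseudocount of 1, the log2 ratio of Tap1 to Tap2 turned to 0.0039 between COM+Met and COM, and that of Tap1 to B2m to -0.041 between COM+Met and NC. Leaving out 1 sample, the log2 difference between COM+Met and COM ran from -0.14 to 0.040 for H2-K1 to H2-D1, from -0.024 to 0.057 for Tap1 to Tap2, from 0.058 to 0.39 for Tap1 to B2m and from 0.16 to 0.49 for H2-K1 to B2m. It ran from -0.030 to 0.064 for Tap1 to B2m between COM+Met and NC, and from -0.21 to 0.13 for H2-K1 to B2m between COM and NC. Without COM-4 the exact permutation p for Tap1 to B2m between COM+Met and COM was 0.026. None of these passed an adjusted p of 0.05 with all samples, and the cause was not tested.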
